A study of Homo sapiens with 16 samples.

Results

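The transcription factor p53 switches on a broad set of target genes, and 34 of them were followed here: direct targets with roles in cell death, proliferation, metabolism and adhesion, apart from the best known ones such as MDM2 and CDKN1A. They were picked by symbol from the 20612 genes of a table of RPKM values (read numbers divided by gene length and by the size of the library), and all 34 symbols were found. RNA was sequenced from HCT116, a human colorectal cancer cell line with intact p53 (p53+/+), and from its p53-/- counterpart. For 8 hours each line received DMSO as vehicle, 5 µM Nutlin-3A, 2.5 µM Entinostat, or both drugs together (the combination), with 2 replicates per group and 16 libraries in all. All groups were cultured in the same medium, and the labels give neither how p53 was removed, nor whether the p53-/- line is 1 clone, nor whether replicates were separate cultures. The p values therefore reflect only how far these samples varied, and part of that may be technical. In bulk RNA a change in the level per cell and a change in the share of cells that express a gene cannot be told apart.

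In unstressed cells the ubiquitin ligase MDM2 binds p53 and marks it for degradation. Nutlin-3A fills the pocket of MDM2 that p53 occupies, so that p53 accumulates and binds response elements, pairs of a decamer motif, at its target genes. Entinostat inhibits class I histone deacetylases (HDACs), which remove acetyl groups from histones and from other proteins, p53 among them.

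The start-site sequences of the targets are shown first because the decamer is what p53 itself reads. RefSeq promoter windows (GRCh38.p14, from 250 bases before to 50 after a start site) were matched by symbol to 28 of the 34 genes, which gave 41 windows. An exact match to the consensus p53 decamer, which is its own reverse complement and was therefore searched once for both strands, lay in 5 of the 41 windows (12.2%) and in 2329 of 35116 windows of all genes (6.63%). The matches belong to FDXR (chr17:74872986-74873015, minus strand), AEN (chr15:88621296-88621325, plus strand), RPS27L (chr15:63157517-63157546, minus strand), PANK1 (chr10:89645246-89645275, minus strand) and RETSAT (chr2:85354569-85354598, minus strand), each within an annotated exon of its own gene in GENCODE. Each stretch below runs 5′ to 3′ on the strand of the gene, with the decamer in capitals.
FDXR: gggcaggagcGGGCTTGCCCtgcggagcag
AEN: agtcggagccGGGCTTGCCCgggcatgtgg
RPS27L: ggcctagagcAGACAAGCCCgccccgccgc
PANK1: gggcaggactGGGCATGCTCagtggcgggg
RETSAT: actggagagcGAACTAGCCCgggcggagcc
FDXR and AEN carried the same decamer, and the other 3 genes each carried another. These letters are a description of the windows, since binding was not measured and a response element can lie outside them.

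Alignments per library ranged from 45902800 to 55507300. Epithelial markers were present, with EPCAM at 126 to 191 and KRT8 at 740 to 1650 RPKM, while CDH17, VIL1 and LGALS4, markers of differentiated gut epithelium, stayed at or below 0.0969. The leukocyte marker PTPRC reached at most 0.0161 RPKM, while CD68, also listed for leukocytes, had 3.4 to 7.33. The fibroblast marker COL1A1 had 2 to 5.8 RPKM.

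Genes were tested where their mean over the 16 libraries was at least 0.5 RPKM, which kept 12466 genes and 29 of the 34 targets. EDA2R, SPATA18, PRDM1, TRIM22 and GLS2 fell below it and are described by their values at the end. Changes are on the scale of log2(RPKM + 0.5), which understates the fold of low genes. Calls were made at an adjusted p under 0.05, with adjustment over all genes tested. Of the 29, the group with the highest mean was Nutlin-3A in p53+/+ cells for 18 and the combination in p53+/+ cells for 11, and no p53-/- group held the highest mean of any.

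**Figure D1:**
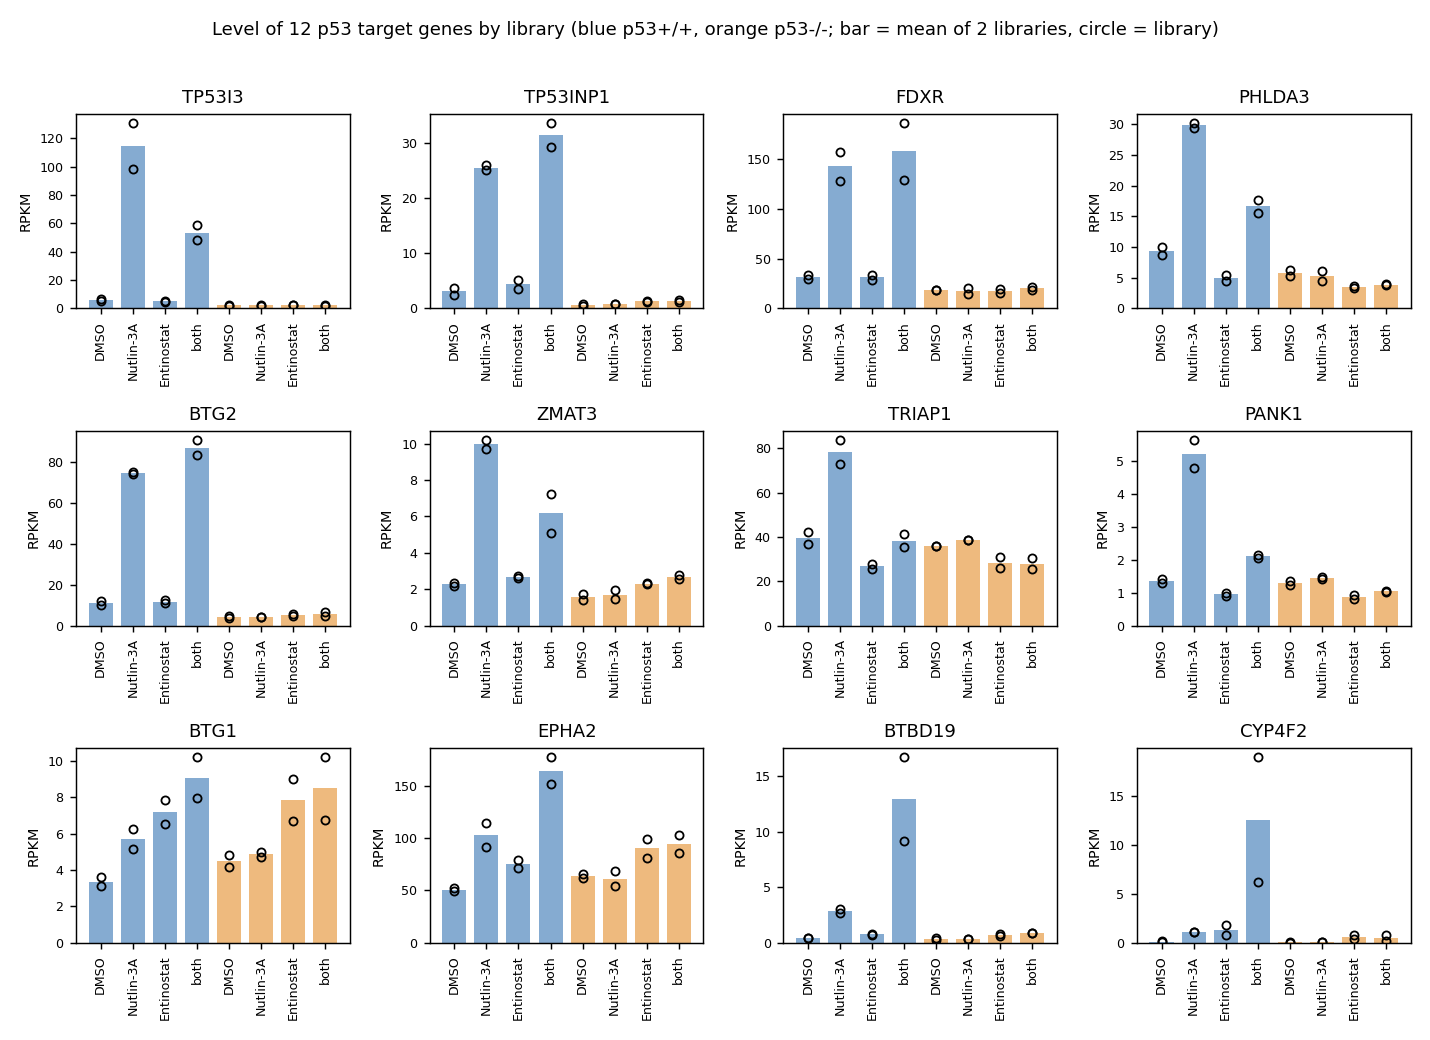
RPKM of 12 of the target genes, picked after their values were seen, by group. Circles are libraries, bars are means of 2 libraries, blue is p53+/+ and orange p53-/-, and the axes are linear from 0. The p53+/+ Nutlin-3A circles of TP53I3 sit at 131 and 98.3 RPKM against 6.73 and 5.21 under DMSO, while its 8 p53-/- circles lie between 1.8 and 2.68.

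Nutlin-3A raised nearly the whole group in p53+/+ cells. Of the 29 genes tested, 28 rose and 0 fell, against 7.89% of all genes tested that rose and 9.5% that fell, and the median log2 change of the 29 was 1.38 against -0.02 for all genes. The Nutlin-3A libraries lay above the DMSO libraries without overlap for all 29, as they did for 27.6% of all genes tested, and 22 of the 29 were at least 2-fold higher by their means, against 3.02% of all genes tested. CYP4F2 and BTBD19 passed the minimum only through drug-treated groups, and the other 27 genes, which reached 0.5 RPKM under DMSO alone, all rose. The exception to the calls was CYP4F2, at 0.204 and 0.0495 RPKM under DMSO and 1.12 and 1.06 under Nutlin-3A (log2 change 1.35 ± 0.44, adjusted p = 0.054, and 0.0033 with replicate number as block). A list of other p53 targets moved alike, with 45 of 50 higher, 1 lower and a median of 1.37, led by MDM2 (3.85), CDKN1A (3.54), SERPINB5 (3.22) and GDF15 (3.07). Both this list and the genes followed here were chosen with earlier results of these data known, so their agreement is not separate support.

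Among genes of apoptosis, mitochondria and autophagy all 9 tested rose, with a median log2 change of 1.63. TP53I3, an oxidoreductase linked to oxidative stress in apoptosis, rose from 6.73 and 5.21 RPKM under DMSO to 131 and 98.3 under Nutlin-3A, 19.2-fold by means (log2 change 4.15 ± 0.18 SE, adjusted p = 1.9e-07). This was the largest log2 change of any gene tested in this comparison. TP53INP1, a stress-induced nuclear protein that also acts in autophagy, went from 3.74 and 2.42 to 26 and 25 RPKM (2.89 ± 0.21, adjusted p = 4.7e-06). FDXR, the mitochondrial ferredoxin reductase, went from 33.1 and 29.3 to 157 and 128 RPKM (2.17 ± 0.2, adjusted p = 2.6e-05). All 3 moved more than 4-fold, and their Nutlin-3A libraries stood far above every DMSO library. DRAM1, a lysosomal membrane protein of autophagy, rose from 6.49 and 5.24 to 22.6 and 19.9 RPKM (1.78 ± 0.12). PHLDA3, which competes with AKT for membrane lipids, rose from 10 and 8.67 to 30.2 and 29.4 RPKM (1.63 ± 0.14). NINJ1, a membrane protein needed for plasma membrane rupture in dying cells, rose from 25.4 and 20.3 to 66.3 and 58.9 RPKM (1.44 ± 0.13). The remaining 3 rose less. TRIAP1, an inhibitor of apoptosis at mitochondria, went from 42.1 and 36.8 to 83.7 and 73.1 RPKM (0.98 ± 0.12). UNC5B, a netrin receptor that can trigger apoptosis without its ligand, went from 5.46 and 4.61 to 11.1 and 8.76 RPKM (0.91 ± 0.21, adjusted p = 0.011). Its call was lost without the second DMSO library or the first Nutlin-3A library, with an adjusted p of up to 0.11. AEN, a nuclease that digests DNA and RNA in apoptosis, went from 21.8 and 23.7 to 33.8 and 35.7 RPKM (0.6 ± 0.09), the smallest rise of the 9.

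The 8 tested genes of proliferation, RNA and transcription all rose, with a median log2 change of 1.09. BTG2, an antiproliferative protein that recruits mRNA deadenylases, rose from 12.2 and 10.2 RPKM under DMSO to 74.1 and 75.3 under Nutlin-3A (2.69 ± 0.15 SE, adjusted p = 8.5e-07). Its paralog BTG1 rose far less, from 3.6 and 3.1 to 6.28 and 5.17 RPKM (0.69 ± 0.2, adjusted p = 0.03). The call of BTG1 was lost when each of the 4 libraries compared was left out in turn, and its adjusted p reached 0.2 over the alternatives. ZMAT3, an RNA-binding zinc finger protein that acts on splicing, rose from 2.18 and 2.37 to 10.2 and 9.71 RPKM (1.91 ± 0.15). RPS27L, a ribosomal protein paralog, rose from 50.3 and 50.4 to 139 and 124 RPKM (1.38 ± 0.09), while RPS27, whose coding sequence is similar, stood at 1576 and 1372 under DMSO and 1903 and 1513 under Nutlin-3A. Reads that fit both copies may have been assigned to either. FBXO22, the substrate receptor of a ubiquitin ligase, rose from 10.7 and 11.8 to 25.1 and 24.4 RPKM (1.11 ± 0.09). ASCC3, a helicase with roles in alkylation repair and stalled ribosomes, rose from 7.1 and 8.55 to 16.3 and 17.4 RPKM (1.07 ± 0.18). Both roughly doubled with close replicates. SERTAD1, a regulator of CDK4 and E2F activity, rose from 26.2 and 19.6 to 55.1 and 41.5 RPKM (1.06 ± 0.28, adjusted p = 0.021), with replicates that differed in both groups. IER5, an immediate early protein that acts on heat shock factor, rose from 23.7 and 21.1 to 35.6 and 32.5 RPKM (0.59 ± 0.12, adjusted p = 0.0054). SERTAD1 and IER5 lost their calls without the second DMSO or the first Nutlin-3A library, with adjusted p values of up to 0.17 and 0.066.

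Of the metabolic enzymes, 5 of 6 tested rose, CYP4F2 being the other, with a median log2 change of 1.48. ACER2, a Golgi ceramidase, rose from 1.79 and 1.78 RPKM under DMSO to 7.53 and 7.72 under Nutlin-3A (1.83 ± 0.16 SE). PANK1, which starts coenzyme A synthesis, rose from 1.43 and 1.31 to 5.64 and 4.8 RPKM (1.61 ± 0.11). DGKA, a diacylglycerol kinase, rose from 7.5 and 7.07 to 23 and 23.6 RPKM (1.61 ± 0.11). These 3 enzymes rose at least 3-fold by their means. CES2, a carboxylesterase that hydrolyses drugs and lipids, rose from 9.46 and 7.37 to 22.2 and 18.8 RPKM (1.24 ± 0.13). RETSAT, which saturates retinol, rose from 20 and 19.5 to 44.5 and 42 RPKM (1.11 ± 0.14).

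The 6 tested genes of adhesion, guidance, the cytoskeleton and unclear function all rose, with a median log2 change of 1.41. UNC5B-AS1, a noncoding RNA antisense to UNC5B, rose from 1.17 and 0.92 RPKM under DMSO to 12.9 and 10.4 under Nutlin-3A, 11.1-fold by means (2.97 ± 0.23 SE, adjusted p = 7.8e-06). It lies within UNC5B, and the strand setting of the counting is not stated, so reads of the pair may not be fully separated. CYFIP2, a subunit of the actin-regulating WAVE complex, rose from 11.2 and 11 to 46.5 and 41.7 RPKM (1.94 ± 0.19). BTBD19, a little-studied BTB domain gene, rose from 0.482 and 0.429 to 3.04 and 2.69 RPKM (1.82 ± 0.22). EPHA2, an ephrin receptor kinase, rose from 51.9 and 49 to 114 and 91.5 RPKM (1.01 ± 0.15). The smallest rises were those of TP53I11, a gene of poorly known function, and PLXNB2, a semaphorin receptor. TP53I11 went from 9.08 and 7.72 to 17.4 and 15.9 RPKM (0.95 ± 0.15). PLXNB2 went from 51.8 and 50.2 to 81.4 and 86.2 RPKM (0.71 ± 0.09).

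**Figure D2:**
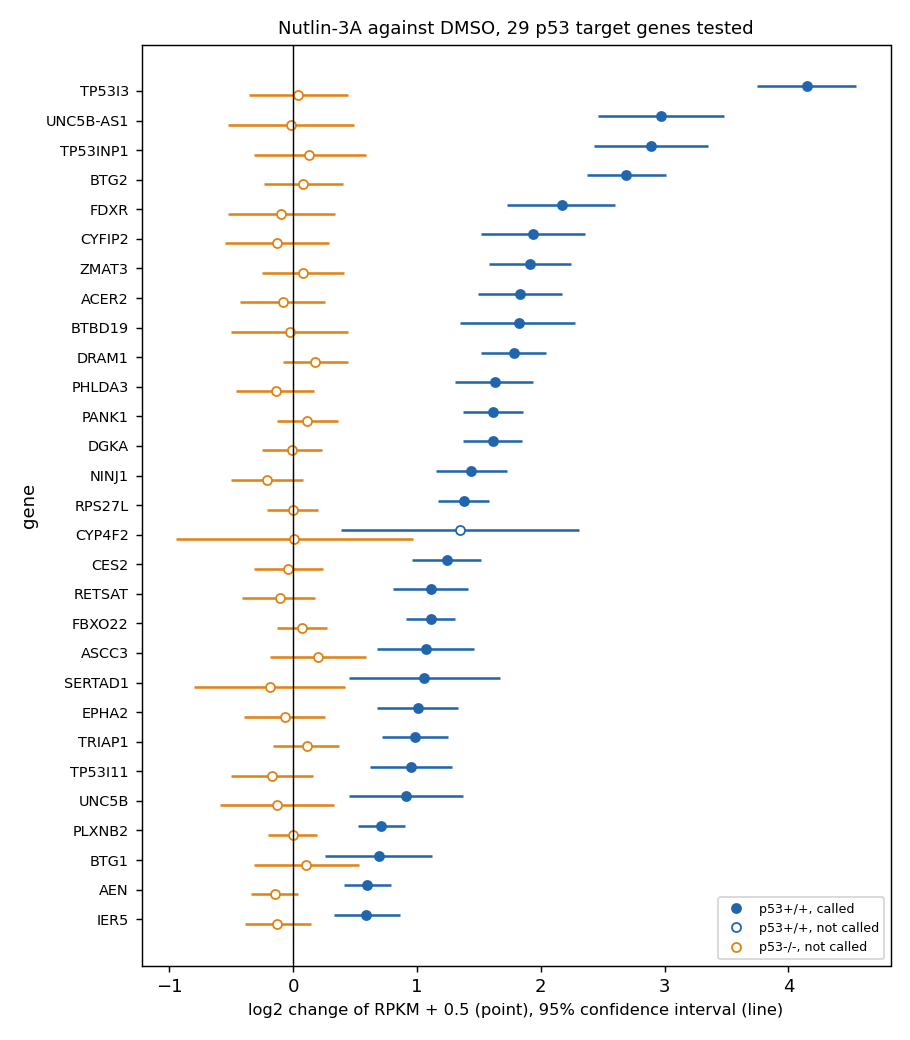
Log2 change of RPKM + 0.5 with Nutlin-3A against DMSO for the 29 genes tested, with 95% confidence intervals, in p53+/+ cells (blue) and p53-/- cells (orange), filled where called. In p53+/+ cells the changes run from 0.59 (IER5) to 4.15 (TP53I3), and in p53-/- cells they lie between -0.21 and 0.2.

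None of these rises was seen in p53-/- cells. With Nutlin-3A, limma called 0 of the 29 genes higher and 0 lower, against 0% of all genes tested in each direction, and at an unadjusted p under 0.05 there were 0 of the 29 and 440 of the 12466. The log2 changes ran from -0.21 (NINJ1) to 0.2 (ASCC3). TP53I3 stood at 2.2 and 2.07 RPKM under DMSO and 2.68 and 1.8 under Nutlin-3A. BTG2 stood at 4.57 and 3.67 under DMSO and 4.42 and 4.28 under Nutlin-3A, and UNC5B-AS1 at 0.196 and 0.128 against 0.119 and 0.184. The groups overlapped for each of these 3 genes, which had risen most in p53+/+ cells together with TP53INP1.

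The difference in the Nutlin-3A response between the genotypes was tested directly. It was larger in p53+/+ cells for 24 of the 29 genes and smaller for 0, against 3.49% and 3.29% of all genes tested, with a median difference of 1.38 in log2 change. TP53I3 had the largest difference (4.11 ± 0.26 SE, adjusted p = 1.2e-05), followed by UNC5B-AS1 (2.99 ± 0.33), TP53INP1 (2.75 ± 0.3) and BTG2 (2.61 ± 0.21). The 5 genes that did not pass were UNC5B (1.04 ± 0.3, adjusted p = 0.061), ASCC3 (0.87 ± 0.25, 0.065), SERTAD1 (1.25 ± 0.39, 0.086), BTG1 (0.59 ± 0.28, 0.27) and CYP4F2 (1.34 ± 0.62, 0.27). With replicate number as block all 5 passed, with adjusted p values of 0.00054, 0.0003, 2.7e-05, 0.014 and 0.039. The shares of all genes given above are those of the fit without the block. The calls of IER5 and TRIAP1 were lost without the second p53+/+ DMSO or the first p53+/+ Nutlin-3A library, with adjusted p values of up to 0.12 and 0.052, and that of IER5 also without either p53-/- DMSO library or the second p53-/- Nutlin-3A library. Of the other p53 targets, 40 of 50 had a larger response in p53+/+ cells and 0 a smaller one.

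The next comparison was the basal level, that under DMSO alone. Here 8 of the 29 genes were lower in p53-/- cells and 0 were higher, against 3.13% and 1.56% of all genes tested, and the median log2 difference of the 29 was -0.32 against -0.01 for all genes. Both p53-/- libraries lay below both p53+/+ libraries for 20 genes and above them for 4, against 26.5% and 23.4% of all genes tested, and the libraries of 5 genes overlapped. With replicate number as block 19 genes were called, 16 lower and 3 higher, the higher ones being BTG1, SERTAD1 and EPHA2. The shares of all genes called above are those of the fit without the block, so these 19 have no such share beside them.

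TP53INP1 had the largest basal difference, with 0.86 and 0.533 RPKM in p53-/- cells against 3.74 and 2.42 in p53+/+ cells (log2 difference -1.57 ± 0.21 SE, adjusted p = 0.00087). BTG2 had 4.57 and 3.67 RPKM against 12.2 and 10.2 (-1.34 ± 0.15, adjusted p = 0.0002), and TP53I3 had 2.2 and 2.07 against 6.73 and 5.21 (-1.29 ± 0.18, adjusted p = 0.0014). These 3 calls held without each of the 4 libraries in turn. UNC5B-AS1 had 0.196 and 0.128 RPKM against 1.17 and 0.92 (-1.22 ± 0.23, adjusted p = 0.0095). CYFIP2 had 5.57 and 4.93 RPKM against 11.2 and 11 (-1.02 ± 0.19, adjusted p = 0.0084). PHLDA3 (-0.64 ± 0.14), RPS27L (-0.5 ± 0.09) and DRAM1 (-0.47 ± 0.12, adjusted p = 0.046) were lower by smaller amounts. All 3 were higher in both p53+/+ libraries, DRAM1 with 6.49 and 5.24 RPKM against 4.44 and 3.76. Without the first p53+/+ or the second p53-/- DMSO library only TP53INP1, BTG2 and TP53I3 were called (3 genes), and without the second p53+/+ DMSO library 5 genes were. The call of DRAM1 was also lost without the first p53-/- library.

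Other genes that Nutlin-3A raised were not called at the basal level. None of the 6 metabolic enzymes was called lower, though all 6 had differences below 0, from -0.06 to -0.52, and ACER2 (adjusted p = 0.032), RETSAT (0.044) and DGKA (0.023) were called lower with replicate number as block. FDXR, which Nutlin-3A raised 4.56-fold, had 18.5 and 18.6 RPKM in p53-/- cells against 33.1 and 29.3 (-0.73 ± 0.2 SE, adjusted p = 0.062, and 0.00056 with replicate number as block). PANK1 had 1.35 and 1.23 RPKM in p53-/- cells against 1.43 and 1.31 in p53+/+ cells (-0.06 ± 0.11, adjusted p = 0.88). AEN had 24.9 and 28.3 RPKM against 21.8 and 23.7 (0.22 ± 0.09, adjusted p = 0.21). EPHA2 had 65.3 and 61.9 RPKM against 51.9 and 49 (0.33 ± 0.15, adjusted p = 0.29, and 0.011 with the block). Of the other p53 targets 14 of 50 were lower and 1 was higher, with a median of -0.21, led by GDF15 (-2.44), CDKN1A (-2.04), TNFRSF6B (-1.83) and, in the other direction, PLK2 (1.4).

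**Figure D3:**
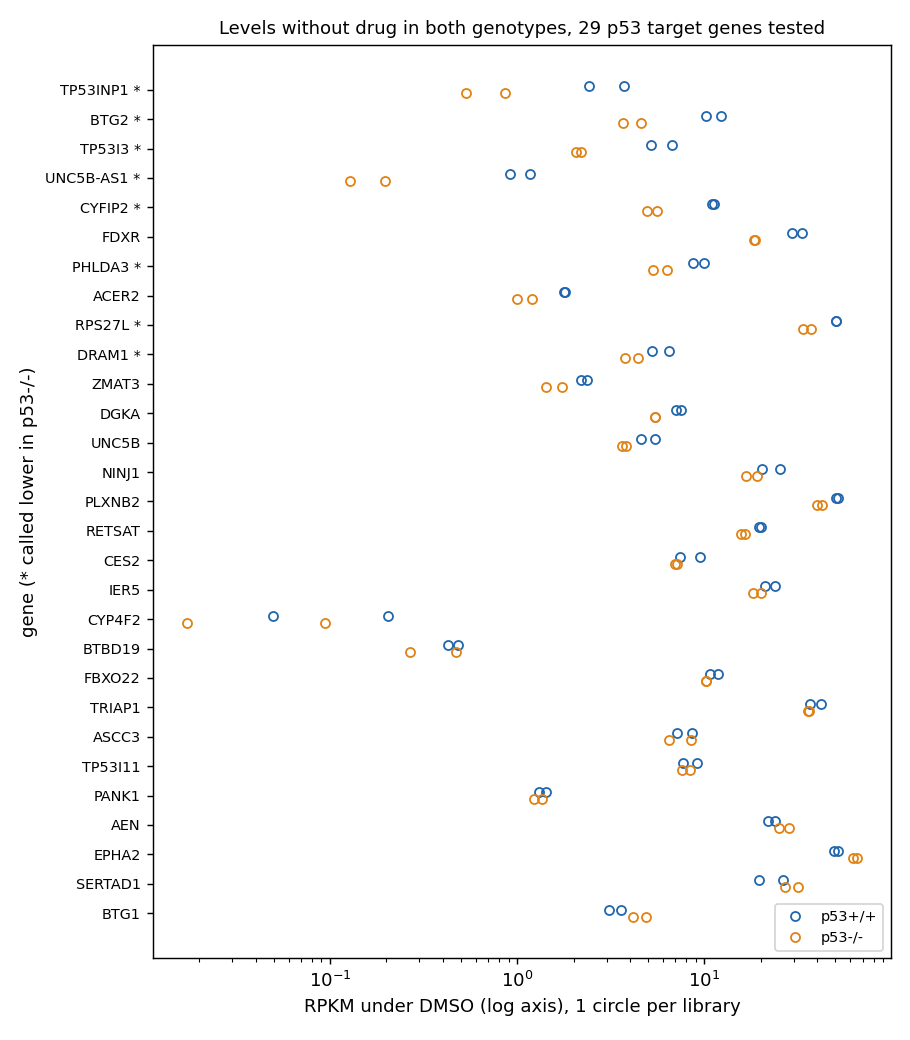
RPKM under DMSO of the 29 genes tested on a log axis, each of the 2 libraries per genotype as a point, ordered by the log2 difference between genotypes, with a star where called lower in p53-/- cells. The p53-/- points of TP53INP1, BTG2, TP53I3, UNC5B-AS1 and CYFIP2 lie clearly left of the p53+/+ points, and those of AEN, EPHA2, SERTAD1 and BTG1 lie right of them.

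Entinostat alone gave calls in both directions, in contrast to Nutlin-3A in p53+/+ cells. In p53+/+ cells 8 of the 29 genes rose and 5 fell, against 15.1% and 12.4% of all genes tested, with a median log2 change of 0.05 against 0.01 for all genes. Of the same 29 genes 9 rose and 4 fell in p53-/- cells, against 15% and 13.3% of all genes tested, with a median of 0.24. The p53+/+ shares are 27.6% and 17.2% of the 29 and the p53-/- shares 31% and 13.8%. The share that fell was thus near that of all genes tested in p53-/- cells and not far above it in p53+/+ cells. The genes called were 10 in common, all 10 in the same direction, or 76.9% of the calls in each genotype. That is near the share over all genes tested, where 2643 shared calls made up 77% of those in p53+/+ and 75.1% of those in p53-/- cells. Within p53-/- cells the calls numbered 21 with replicate number as block, 15 higher and 6 lower. The shares of all genes in this paragraph are those of the fit without the block. A test of the difference in the Entinostat response between the genotypes called 0 genes in either direction, against 0% of all genes tested each way, with 1 of the 29 and 164 of the 12466 at an unadjusted p under 0.05.

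IER5 rose with Entinostat alone to 43.9 and 39.4 RPKM in p53+/+ cells, above its Nutlin-3A libraries (log2 change against DMSO 0.88 ± 0.12 SE, adjusted p = 0.001). Without p53, IER5 went from 20.1 and 18.2 RPKM under DMSO to 42 and 34.2 (0.97 ± 0.12, adjusted p = 0.0006). BTG1 reached 7.86 and 6.55 RPKM in p53+/+ cells (1 ± 0.2, adjusted p = 0.0043) and 8.99 and 6.68 in p53-/- cells, from 4.85 and 4.16 (0.73 ± 0.2, adjusted p = 0.017). Both genes stood higher in each Entinostat library than in each DMSO library of the same genotype. ACER2 reached 3.37 and 2.62 RPKM in p53+/+ cells (0.61 ± 0.16) and 2.61 and 2.18 in p53-/- cells, from 1.2 and 0.999 (0.85 ± 0.16). CYFIP2 reached 18.7 and 16.1 RPKM (0.62 ± 0.19) and, in p53-/- cells, 11.8 and 7.87 from 5.57 and 4.93 (0.82 ± 0.19). UNC5B reached 10.1 and 7.12 RPKM (0.71 ± 0.21) and, in p53-/- cells, 7.17 and 5.34 from 3.64 and 3.79 (0.67 ± 0.21). For CYFIP2 and UNC5B both Entinostat libraries lay above both DMSO libraries in p53-/- cells, where Nutlin-3A had no called effect. EPHA2 reached 79.4 and 71.3 RPKM in p53+/+ cells (0.57 ± 0.15) and 98.9 and 81.3 in p53-/- cells (0.49 ± 0.15). RETSAT reached 27.7 and 26 RPKM in p53+/+ cells (0.43 ± 0.14) and 23.9 and 18.9 in p53-/- cells (0.4 ± 0.14).

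CYP4F2, a cytochrome P450 that hydroxylates fatty acids, reached 1.84 and 0.809 RPKM with Entinostat in p53+/+ cells (1.49 ± 0.44 SE, adjusted p = 0.027). Without p53, CYP4F2 went from 0.0939 and 0.0172 to 0.816 and 0.418 RPKM (0.99 ± 0.44, adjusted p = 0.11, and 0.014 with replicate number as block). The replicates of CYP4F2 differed widely in each of these groups. In p53-/- cells alone the calls also took in UNC5B-AS1, at 0.799 and 0.377 RPKM (0.69 ± 0.23, adjusted p = 0.045), and ZMAT3, at 2.34 and 2.29 against 1.43 and 1.73 (0.44 ± 0.15, adjusted p = 0.046). UNC5B-AS1 stood at 1.23 and 0.745 RPKM with Entinostat in p53+/+ cells, around its DMSO libraries, and its difference between genotypes was -0.76 ± 0.33 (adjusted p = 1).

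The genes that fell with Entinostat were led by the pair PHLDA3 and AEN. PHLDA3 fell to 4.43 and 5.39 RPKM in p53+/+ cells (-0.86 ± 0.14 SE, adjusted p = 0.002) and, in p53-/- cells, from 6.28 and 5.32 to 3.28 and 3.65 (-0.67 ± 0.14, adjusted p = 0.0063). AEN fell to 15 and 14.9 RPKM in p53+/+ cells (-0.59 ± 0.09, adjusted p = 0.0014) and to 17.2 and 18.5 in p53-/- cells (-0.56 ± 0.09, adjusted p = 0.0015). Their Entinostat libraries lay below all DMSO libraries of the same genotype. TRIAP1 fell to 25.7 and 27.9 RPKM in p53+/+ cells (-0.55 ± 0.12, adjusted p = 0.0073) and had 25.8 and 30.8 in p53-/- cells (-0.34 ± 0.12, adjusted p = 0.052, and 0.023 with the block). PANK1 fell to 0.901 and 1 RPKM (-0.36 ± 0.11) and 0.82 and 0.917 (-0.39 ± 0.11). NINJ1 fell in p53-/- cells to 13.6 and 12.1 RPKM (-0.46 ± 0.13) and had 17.6 and 17.4 in p53+/+ cells (-0.37 ± 0.13, adjusted p = 0.06, and 0.0019 with the block). PLXNB2 fell in p53+/+ cells to 40.8 and 42.4 RPKM (-0.29 ± 0.09). Without p53, PLXNB2 had 34.6 and 34.2 (-0.25 ± 0.09, adjusted p = 0.057, and 0.028 with the block).

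Many of these Entinostat calls depended on a single library. In p53+/+ cells the 13 calls became 4 without the first and 6 without the second DMSO library, and 3 (AEN, PHLDA3 and IER5) without the first Entinostat library. In p53-/- cells the 13 became 5 and 4 without the first and second DMSO library and 3 (AEN, IER5 and ACER2) without the first Entinostat library. The genes that Nutlin-3A raised most differed in their values under Entinostat. In p53+/+ cells TP53I3 (-0.25 ± 0.18 SE, 95% interval -0.65 to 0.16), FDXR (-0.01 ± 0.2, -0.44 to 0.43) and BTG2 (0.08 ± 0.15, -0.24 to 0.4) had intervals that include 0. BTG2 had 5.53 and 4.93 RPKM in p53-/- cells (0.32 ± 0.15, adjusted p = 0.13, and 0.021 with the block). TP53INP1 had 5.11 and 3.59 RPKM in p53+/+ cells (0.45 ± 0.21, adjusted p = 0.13, and 0.0058 with the block) and 1.43 and 1.1 in p53-/- cells (0.57 ± 0.21, adjusted p = 0.063, and 0.0014 with the block). CYFIP2 rose in both genotypes and UNC5B-AS1 in p53-/- cells, as given above. Of the other p53 targets 8 of 50 rose and 7 fell in p53+/+ cells, led by KITLG (-1.4), LIF (-1.36), KCNN4 (-1.28) and PMAIP1 (0.78), and in p53-/- cells 11 rose and 8 fell, led by CDKN1A (1.85), LIF (-1.27), KITLG (-1.26) and KCNN4 (-1.16).

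**Figure D4:**
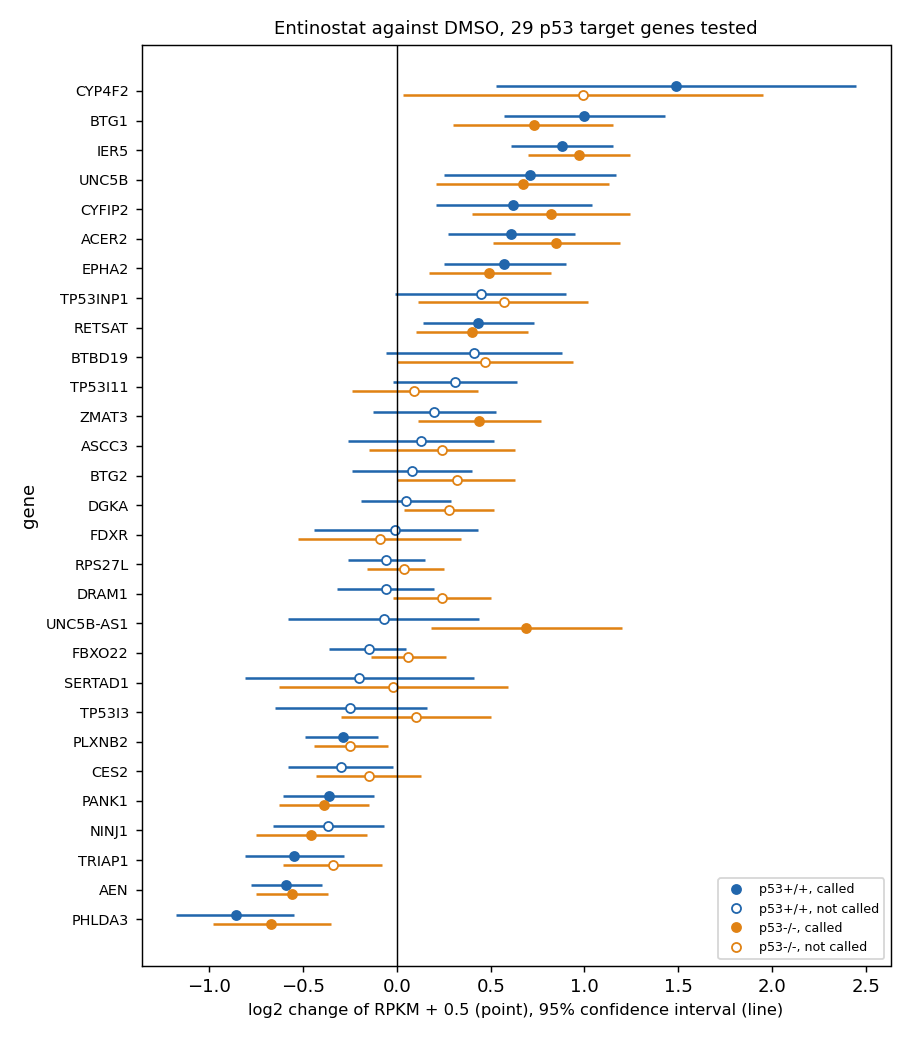
Log2 change of RPKM + 0.5 with Entinostat against DMSO for the 29 genes tested, with 95% confidence intervals, p53+/+ in blue and p53-/- in orange, filled where called. Genes from CYP4F2 (1.49 in p53+/+ cells) to PHLDA3 (-0.86) are spread on both sides of 0, and the points of the genotypes lie near each other for most genes.

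With both drugs, 27 of the 29 genes were higher than under DMSO in p53+/+ cells and 0 were lower, against 23.2% and 26.8% of all genes tested, with a median log2 change of 1.25 against -0.03. The genes without a call were AEN, at 26.7 and 24.3 RPKM (0.16 ± 0.09 SE, adjusted p = 0.14), and TRIAP1, at 35.4 and 41.2 (-0.04 ± 0.12, adjusted p = 0.79). Under Nutlin-3A alone both had risen. With quantile normalization AEN was called higher (adjusted p = 0.0074) and PANK1 lost its call (adjusted p = 0.2). The call of TP53I11 was lost without the second DMSO or the first combination library, with an adjusted p of up to 0.075. In p53-/- cells 11 genes rose and 4 fell with the combination, against 17.1% and 14.7% of all genes tested, and the median was 0.31. The 4 that fell were AEN (-0.64 ± 0.09), PHLDA3 (-0.53 ± 0.14), NINJ1 (-0.42 ± 0.13) and TRIAP1 (-0.37 ± 0.12). They made up 13.8% of the 29, near the share of all genes tested. Of the 9 tested genes of apoptosis, mitochondria and autophagy these 4 fell and 2 rose. With quantile normalization NINJ1 and TRIAP1 lost their calls. The 11 that rose ran from DGKA (0.39 ± 0.11) to IER5 (0.98 ± 0.12). The 15 calls became 8 and 6 without the first and second p53-/- DMSO library and 4 without the first combination library. Of the other p53 targets 44 of 50 rose and 2 fell with the combination in p53+/+ cells, among them PLK3 (4.35), MDM2 (4.23) and CDKN1A (3.51), and in p53-/- cells 14 rose and 9 fell, led by CDKN1A (1.98), PMAIP1 (1.34), KITLG (-1.2) and LIF (-1.19).

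Set against Nutlin-3A alone, the combination moved the group apart in p53+/+ cells. It left 13 of the 29 genes lower and 6 higher, against 18.1% and 16.6% of all genes tested, with a median log2 change of -0.32 against -0.02 for all genes. By role, 5 of the 9 genes of apoptosis, mitochondria and autophagy were lower and 0 higher. Of the metabolic enzymes 3 of 6 were lower and 2 higher, of the proliferation, RNA and transcription genes 3 of 8 were lower and 2 higher, and of the last group 2 of 6 each way. Leaving out the first combination library brought the 19 calls to 12.

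UNC5B-AS1 had the largest fall, from 12.9 and 10.4 RPKM under Nutlin-3A to 4.71 and 3.31 under both drugs (-1.44 ± 0.23 SE, adjusted p = 0.0013). UNC5B, the gene it lies within, had 17 and 13 RPKM under both drugs against 11.1 and 8.76 (0.57 ± 0.21, adjusted p = 0.056, and 0.00097 with replicate number as block). The pair of overlapping genes had opposite signs here, while both had risen with Nutlin-3A. PANK1 fell from 5.64 and 4.8 to 2.16 and 2.06 RPKM (-1.13 ± 0.11, adjusted p = 0.00018). TP53I3 fell from 131 and 98.3 to 58.6 and 48.4 RPKM (-1.08 ± 0.18, adjusted p = 0.0016), still 8.97-fold above DMSO. TRIAP1 fell from 83.7 and 73.1 to 35.4 and 41.2 RPKM (-1.02 ± 0.12, adjusted p = 0.00038). For these 3 genes both combination libraries lay below both Nutlin-3A libraries, and only TRIAP1 among them was back in the range around its DMSO libraries. PHLDA3 fell from 30.2 and 29.4 to 15.6 and 17.7 RPKM (-0.82 ± 0.14). NINJ1 fell to 42.2 and 36.9 RPKM (-0.66 ± 0.13) and ZMAT3 to 5.11 and 7.26 (-0.66 ± 0.15). CES2 fell to 12.4 and 13.7 RPKM (-0.63 ± 0.13) and DGKA to 13.6 and 16.4 (-0.63 ± 0.11). AEN (-0.44 ± 0.09), RPS27L (-0.42 ± 0.09), FBXO22 (-0.38 ± 0.09) and PLXNB2 (-0.32 ± 0.09) fell by less. With only the groups of this comparison fitted, RPS27L, FBXO22 and PLXNB2 lost their calls. The call of ZMAT3 was lost without the first combination library (adjusted p up to 0.077 over the alternatives) and that of RPS27L without the first Nutlin-3A library (up to 0.071). Those of FBXO22 (up to 0.086) and PLXNB2 (up to 0.11) were lost without either of these, and that of PLXNB2 also without the second Nutlin-3A library.

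The 6 genes that stood higher with both drugs than with Nutlin-3A alone were led by CYP4F2 and BTBD19. CYP4F2 rose from 1.12 and 1.06 RPKM under Nutlin-3A to 18.9 and 6.19 under both drugs (2.85 ± 0.44 SE, adjusted p = 0.0011), and in p53-/- cells it had 0.796 and 0.163 under both drugs. BTBD19 rose from 3.04 and 2.69 to 16.7 and 9.18 RPKM (1.94 ± 0.22, adjusted p = 0.00028), and in p53-/- cells it had 0.881 and 0.846. In both genes the first combination library was well above the second, and both lay above all other libraries. BTBD19 neighbours PLK3, with TCTEX1D4 between them in the RefSeq order. PLK3, a polo-like kinase, had 14.8 and 12 RPKM under DMSO, 70.3 and 50.6 under Nutlin-3A, 22.4 and 15.7 under Entinostat and 446 and 176 under both, while TCTEX1D4 had at most 0.197 in any library. The part of PLK3 reads in the BTBD19 values was not tested. CYP4F3, a close relative of CYP4F2, had 3.84 and 2.53 RPKM under Nutlin-3A and 5.5 and 2.75 under both drugs, and reads shared between the copies could have been assigned to either. EPHA2 rose from 114 and 91.5 to 177 and 151 RPKM (0.68 ± 0.15), BTG1 from 6.28 and 5.17 to 10.2 and 7.96 (0.62 ± 0.2), RETSAT from 44.5 and 42 to 66.2 and 51.7 (0.43 ± 0.14) and IER5 from 35.6 and 32.5 to 47.8 and 43.4 (0.42 ± 0.12). These last 4 genes had all risen with Entinostat alone too. Their calls against Nutlin-3A alone were each lost without the second Nutlin-3A library and without the first combination library, and those of BTG1, RETSAT and IER5 also without the first Nutlin-3A library. With only the groups of this comparison fitted, RETSAT and IER5 lost their calls too. Adjusted p values reached 0.058 for EPHA2, 0.21 for BTG1, 0.26 for RETSAT and 0.14 for IER5.

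The other 9 genes without a call, besides UNC5B, were the following. FDXR had 186 and 129 RPKM under both drugs (0.13 ± 0.2 SE against Nutlin-3A, 95% interval -0.31 to 0.57), BTG2 had 90.8 and 83.3 (0.22 ± 0.15, -0.1 to 0.54) and TP53INP1 had 33.6 and 29.2 (0.29 ± 0.21, -0.17 to 0.75). CYFIP2 had 44.2 and 37.8 (-0.11 ± 0.19, -0.52 to 0.31), DRAM1 had 18.5 and 17.1 (-0.25 ± 0.12) and ACER2 had 5.6 and 6.95 (-0.27 ± 0.16). SERTAD1 had 67.2 and 44.7 (0.2 ± 0.28) and ASCC3 had 11.6 and 15.4 (-0.33 ± 0.18). TP53I11 had 13.9 and 11.7 (-0.37 ± 0.15, -0.71 to -0.04, adjusted p = 0.075), an interval that does not include 0 before adjustment. With replicate number as block UNC5B, TP53INP1, DRAM1, ASCC3 and TP53I11 were called too, which made 24. The share of all genes called with the block is not given beside this count. Of the other p53 targets 23 of 50 were lower with both drugs than with Nutlin-3A alone and 6 higher, with a median of -0.27, among them PLK3 (2.22), KITLG (-1.58) and FAS (-1.52).

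**Figure D5:**
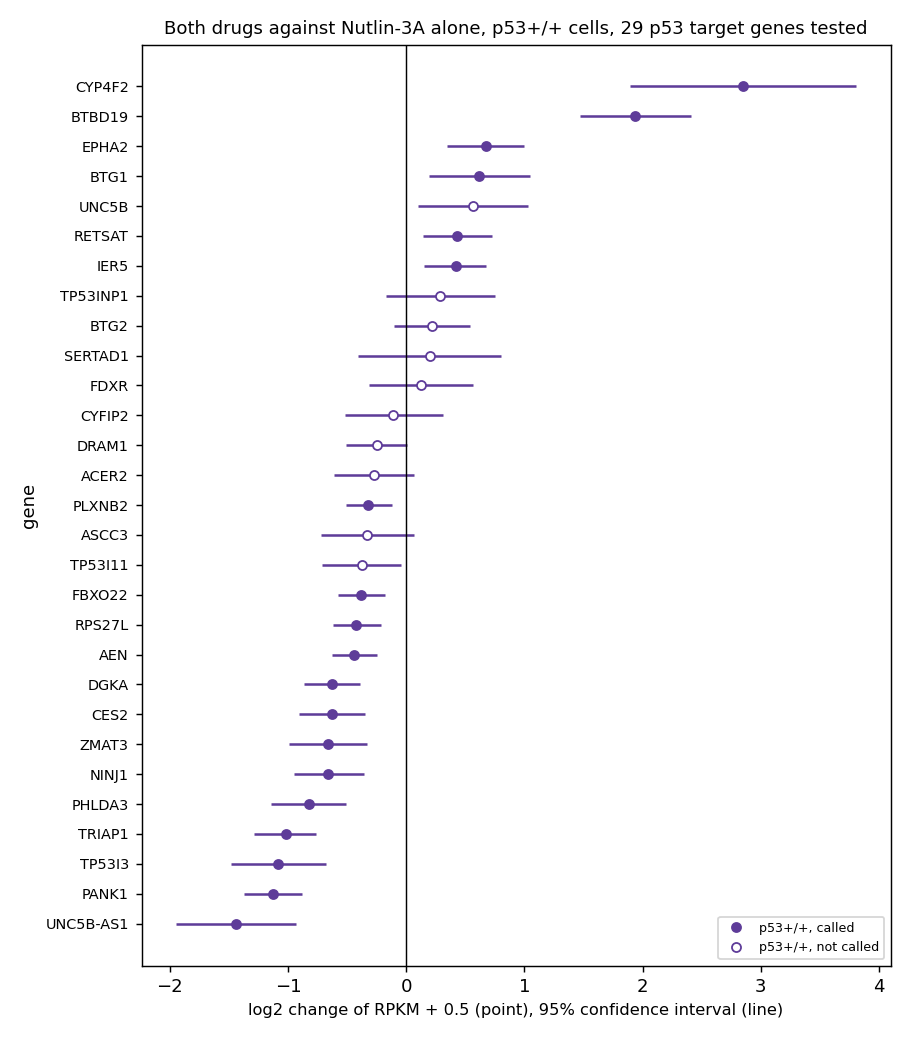
Log2 change of RPKM + 0.5 of both drugs against Nutlin-3A alone in p53+/+ cells for the 29 genes tested, with 95% confidence intervals, filled where called. CYP4F2 (2.85) and BTBD19 (1.94) stand apart on the right, and UNC5B-AS1 (-1.44), PANK1 (-1.13), TP53I3 (-1.08) and TRIAP1 (-1.02) lie farthest left.

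Whether the effects of the drugs simply added on the log2 scale was tested as the combination change minus the sum of the single-drug changes in p53+/+ cells. limma called 0 of the 29 genes above and 0 below additivity, against 0% of all genes tested each way, with 12 of the 29 and 587 of the 12466 at an unadjusted p under 0.05. The median departure of the 29 was -0.29 against -0.03 for all genes, and that of the other p53 targets was -0.31. The most negative departures were those of UNC5B-AS1 (-1.37 ± 0.33 SE, adjusted p = 0.51), ACER2 (-0.87 ± 0.22, 0.57) and ZMAT3 (-0.86 ± 0.21, 0.54), and the most positive were those of BTBD19 (1.53 ± 0.3, 0.34) and CYP4F2 (1.35 ± 0.62, 0.97). BTBD19 alone passed without the second combination library (adjusted p = 0.014). This comparison and the ones above share their DMSO and single-drug libraries, so the sign of a departure is not separate evidence.

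The 5 genes below 0.5 RPKM on average are given by their values, with adjusted p values from a fit without a minimum. GLS2, the liver-type glutaminase, had 0.423 and 0.328 RPKM under Nutlin-3A in p53+/+ cells against 0.0155 and 0 under DMSO (adjusted p = 1.2e-05) and 0.0613 and 0.0291 under both drugs. In the 8 p53-/- libraries GLS2 reached at most 0.0291. It was the only one of the 34 to pass the additivity test in that fit (-0.66, adjusted p = 0.0038). All GLS2 values lay below 0.5 RPKM, and both libraries were 0 under Entinostat in p53+/+ and under Nutlin-3A in p53-/- cells. The spread behind the p values of GLS2 was thus drawn partly from groups at the floor. TRIM22, an interferon-inducible ubiquitin ligase, had 0.511 and 0.822 RPKM under Nutlin-3A against 0.109 and 0.154 under DMSO (adjusted p = 0.00053) and 0.283 and 0.218 under both drugs. TRIM22 reached at most 0.0263 without p53, so the spread behind its p value was also drawn partly from groups at the floor. PRDM1, a transcriptional repressor of lymphocyte differentiation, had 0.743 and 0.908 RPKM under Nutlin-3A against 0.117 and 0.118 (adjusted p = 0.00014). PRDM1 also rose with Entinostat, to 0.295 and 0.405 in p53+/+ cells (adjusted p = 0.015) and from 0.0704 and 0.0688 to 0.361 and 0.391 in p53-/- cells (adjusted p = 0.0046). Under both drugs PRDM1 had 0.572 and 0.757 in p53+/+ cells. In the p53-/- libraries without Entinostat PRDM1 had 0.0427 to 0.0736 RPKM, so its p values too draw partly on groups near the floor. EDA2R, a receptor of the tumour necrosis factor family, had 0.0476 and 0.0497 RPKM under Nutlin-3A and at most 0.0221 in the p53-/- libraries. SPATA18, a protein of mitochondrial quality control, stayed at or below 0.0176 in all libraries, so no response of it was detectable at this depth.

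Overlap with other genes limits some of these values. By RefSeq, 10 of the 34 genes overlap another gene of the table, among them UNC5B with UNC5B-AS1, TP53I3 with FAM228B, DGKA with PYM1 and TP53INP1 with NDUFAF6. FAM228B had 0.105 to 0.357 RPKM under Nutlin-3A in p53+/+ cells, where TP53I3 had 98.3 and 131. NDUFAF6 had 5.43 to 6.22 RPKM in the same libraries and 6.62 to 8.26 under DMSO, so it did not follow the rise of TP53INP1. TSPAN18, which overlaps TP53I11, had 2.63 to 2.64 RPKM under DMSO and 3.88 to 4.09 under Nutlin-3A in p53+/+ cells. SPRYD4, which overlaps GLS2, had 4.22 to 4.3 and 5.36 to 6.75 RPKM in these groups. Whether their reads entered the values of TP53I11 and GLS2 was not tested.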

How the data were processed

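RNA of 16 HCT116 libraries, 2 in each of 8 groups of genotype and treatment, was made into stranded libraries of polyadenylated RNA, per the labels. The authors deposited RPKM per gene. Per the submitters' processing notes Bowtie2, hg19 and Partek were used. Versions, gene models, strand counting and filters were not given in the sources used here. Column names matched all 16 samples.

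From these values log2(RPKM + 0.5) was fitted with limma 3.58.1 in R 4.3.3, as 8 group means with an intensity trend (8 residual and 4.09 prior degrees of freedom), for 12466 genes (60.5%) with a mean of at least 0.5 RPKM. Benjamini-Hochberg adjustment ran over all tested genes in each of 11 comparisons, with calls at an adjusted p under 0.05. Folds are ratios of mean RPKM, and intervals are 95% intervals of the model. The script was tested on simulated data with known changes in the p53+/+ Nutlin-3A group and noise drawn independently for each library. The simulation held no replicate differences shared between groups, so it does not cover that feature of the real data. Depth as alignments is known, but reads per gene are not, so no counting interval is given.

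All 34 members were to be named, with MDM2 and CDKN1A for reference, and up to 4 called genes per comparison from 56 other p53 targets, 50 of them tested. Some genes chosen by this rule are left out of the text. Members and lists were chosen with earlier results of these data known. The main fit held no term for replicate number, which entered as a block only in an alternative. Replicate differences went together across genes in each of the 28 pairs of groups (r from 0.27 to 0.78, median 0.43). The spread of the main fit therefore includes these shared differences. Marker lists summed to 1740 to 4800 RPKM for epithelium, 3.47 to 7.4 for leukocytes, 0.0218 to 0.281 for endothelium and 2.02 to 5.8 for fibroblasts. Alternatives varied the pseudocount, the minimum, the scaling, the block, the groups fitted, the trend and the libraries.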

Additional observations from a re-analysis of the deposited data

Results flagged for a closer look

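The response to Nutlin-3A differed between the genotypes, by the test of the difference itself, for 24 of the 29 genes tested, and in all 24 it was larger in p53+/+ cells. As differences in log2 change, these were 4.11 for TP53I3, 2.99 for UNC5B-AS1, 2.75 for TP53INP1, 2.61 for BTG2, 2.26 for FDXR and 2.07 for CYFIP2. ACER2 (1.91), BTBD19 (1.84), ZMAT3 (1.83), PHLDA3 (1.77), NINJ1 (1.65), DGKA (1.62), DRAM1 (1.6) and PANK1 (1.5) followed. The smallest were those of RPS27L (1.38), CES2 (1.29), RETSAT (1.23), TP53I11 (1.12), EPHA2 (1.08), FBXO22 (1.04), TRIAP1 (0.88), AEN (0.75), IER5 (0.72) and PLXNB2 (0.71). In both replicate numbers all 29 differences were above 0.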

How the results depend on the processing

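No call of the 29 genes changed direction in any of the 11 comparisons under the alternatives run. Of the 28 genes raised by Nutlin-3A in p53+/+ cells, 24 stayed called under all 13 alternatives. Of the 13 Entinostat calls 3 did so in p53+/+ cells and 3 in p53-/- cells, of the 8 basal calls 3 and of the 19 calls of both drugs against Nutlin-3A 11. With the replicate block the basal count was 19 and the Entinostat count in p53-/- cells 21, and the block moved no other count by over 1.5 times. Shares of all genes called with the block are not given here. With quantile normalization the combination count in p53-/- cells was 9. Leaving out 1 library at a time gave 24 to 27 genes for Nutlin-3A in p53+/+ cells, 3 to 10 for Entinostat in p53+/+ cells, 3 to 12 for Entinostat in p53-/- cells, 26 to 27 for the combination in p53+/+ cells and 4 to 13 in p53-/- cells. It gave 3 to 7 for the basal difference, 22 to 24 for the difference in Nutlin-3A response, 12 to 20 for both drugs against Nutlin-3A, 0 for Nutlin-3A in p53-/- cells and for the difference in Entinostat response, and 0 to 1 for additivity, where the 1 was BTBD19. Without a minimum RPKM the additivity count was 1 (GLS2, below 0.5 RPKM in every library). A lone library in these fits is assumed to vary like the other groups, and the other causes of these shifts were not tested. Other scalings moved the median of all genes by at most 0.037 in size on the log2 scale.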
